A study of Rattus norvegicus with 9 samples.

Results

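The genes described here are markers of mesangial cells and of the contractile machinery of smooth muscle, measured in kidney cortex of diabetic rats. They were taken by name: of the 8 symbols Tagln, Des, Pdgfrb, Itga8, Mylk, Acta2, Myh11 and Cnn1, 6 matched a row among the 18420 genes of the expression table, and Acta2 and Myh11 were not analysed here. All 9 samples came from ZDF fa/fa rats, a line that carries a defective leptin receptor and becomes obese and diabetic, and all carried the same treatment label, Medical Bypass. The series title sets that treatment against gastric bypass in diabetic kidney disease, but every sample analysed here belongs to the 1 treatment group, so the comparisons below are between replicates and between genes, not between treatments. The labels name no drug, dose, age or sex, and do not say whether the replicates were separate animals, so every p-value reflects the spread among these 9 samples alone, part or all of which may be technical.

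Mesangial cells are the contractile stromal cells that hold the capillary loops of the glomerulus together. They share part of their protein equipment with the smooth muscle of arterioles and with pericytes, which wrap the other small vessels of the cortex. In such cells calcium and calmodulin activate myosin light chain kinase, the phosphorylated light chain lets myosin pull on smooth muscle actin, and a phosphatase, itself held back by other kinases, reverses the step. Platelet-derived growth factor acting on the receptor encoded by Pdgfrb recruits mesangial cells and pericytes to developing vessels, and integrin alpha 8, paired with integrin beta 1, anchors mesangial cells to matrix.

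A RefSeq promoter window on the rat build GRCr8 was found for 4 of the 6 genes. It ran from 250 bases before to 50 bases after the annotated start. All 4 windows found are shown, and they belong to the member pairs with the highest correlations below, Itga8 with Mylk and Des with Cnn1. Capitals mark matches, on either strand, to CATTCC (the MCAT element bound by TEAD factors), CANNTG (the E-box) or GGGCGG (the GC box bound by Sp1-type factors). The CArG box, to which serum response factor binds at many contractile genes, was searched for with at most 1 G or C allowed in its core. The Itga8 window was chr17:80410584-80410883 on the minus strand, Mylk chr11:79498525-79498824 on the minus strand, Des chr9:84299376-84299675 on the plus strand and Cnn1 chr8:28908187-28908486 on the plus strand.
Itga8: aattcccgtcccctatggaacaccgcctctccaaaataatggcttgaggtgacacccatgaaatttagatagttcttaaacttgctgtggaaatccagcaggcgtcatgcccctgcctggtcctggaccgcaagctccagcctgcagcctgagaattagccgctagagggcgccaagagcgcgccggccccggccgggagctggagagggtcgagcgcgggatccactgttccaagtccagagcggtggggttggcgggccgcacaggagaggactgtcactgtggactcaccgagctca
Mylk: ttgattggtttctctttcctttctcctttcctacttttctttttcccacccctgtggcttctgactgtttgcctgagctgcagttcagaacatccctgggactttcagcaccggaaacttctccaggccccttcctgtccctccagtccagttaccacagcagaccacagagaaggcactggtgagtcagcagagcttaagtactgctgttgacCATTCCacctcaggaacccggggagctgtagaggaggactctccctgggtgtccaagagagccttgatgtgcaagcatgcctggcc
Des: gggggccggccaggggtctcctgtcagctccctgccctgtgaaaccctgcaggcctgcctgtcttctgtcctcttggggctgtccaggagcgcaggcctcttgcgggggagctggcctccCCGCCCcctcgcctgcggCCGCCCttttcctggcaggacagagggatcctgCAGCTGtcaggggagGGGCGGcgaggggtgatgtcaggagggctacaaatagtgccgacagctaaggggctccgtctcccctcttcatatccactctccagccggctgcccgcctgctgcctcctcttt
Cnn1: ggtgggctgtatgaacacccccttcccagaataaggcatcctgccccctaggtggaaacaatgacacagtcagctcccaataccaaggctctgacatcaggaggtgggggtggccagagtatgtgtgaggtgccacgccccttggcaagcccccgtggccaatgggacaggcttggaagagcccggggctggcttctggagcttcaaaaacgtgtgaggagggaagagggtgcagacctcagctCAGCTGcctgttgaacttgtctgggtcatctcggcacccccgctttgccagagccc

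None of these windows held a CArG box match, which was present in 9.42% of 33469 rat promoter windows of the same length. Mylk had 1 CATTCC match, found in 14.2% of all windows. Des and Cnn1 each had 1 CANNTG match, a motif found in 72.1% of windows, and Des had 3 GGGCGG matches, a motif found in 33.1%. The Itga8 window matched none of the motifs searched. These matches describe letters in a short window and say nothing of binding, and the matches of different motifs did not overlap in the windows shown.

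Levels are given as the authors' size-factor-scaled reads, which are not divided by gene length, so levels of different genes are not compared. Each library held between 10757440 reads in genes (replicate 3) and 43071223 (replicate 8). Reads that aligned to several places, called multiply aligned below, made from 14.9% of counted reads in replicate 2 to 22.1% in replicate 5. Pair results that rest on replicates 1 to 3 are also given for replicates 4 to 9, since earlier results of these data set the former apart in circadian clock genes. Of markers of striated muscle and urothelium, Actc1 was at 0 in 5 libraries and Upk2 in 7, whereas Mylpf averaged 21.9, Tnnt3 13.7, Acta1 10.6 and Upk1a 26.5 and were never at 0. The striated muscle list, with 8 of 9 genes in the table, summed to between 30.3 and 107, and the urothelium list, with 4 of 5, to between 9.95 and 63.8. Their part in the member levels was not tested. Summed podocyte markers ran from 12072 to 16415 and summed endothelial markers from 11696 to 15132, while summed proximal tubule markers ran from 122328 in replicate 1 to 245625 in replicate 8. In bulk cortex, fewer cells of a type and less RNA per cell cannot be told apart.

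Tagln, which encodes transgelin, an actin-binding protein of smooth muscle and of activated stromal cells, varied most among the 6 genes. Its level was 1391 in replicate 2, the lowest, with a median of 2955 and a highest value of 5365 in replicate 5. Replicates 2 and 3 were low, the latter at 1698, replicates 5 and 9 were high, the latter at 5123, and the other 5 lay together between 2747 and 3619. The mean was 3203 ± 1345 (SD, n = 9), and the highest replicate stood 3.86-fold above the lowest. The coefficient of variation was 42.0%, against 1.71% from counting error alone over 853 to 7329 reads.

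Cnn1, which encodes calponin, a regulator of actomyosin in differentiated smooth muscle, was the least deeply counted member. It had 35 to 173 reads per library, and its level ran from 43.5 in replicate 2 through a median of 94.1 to 151 in replicate 1. Replicate 2 was the low sample and replicate 1 the high one, and the other 7 lay between 69.7 and 107. The coefficient of variation of 31.5% compares with a counting error of 10.2%, a larger part than for any other member.

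Mylk, myosin light chain kinase, switches contraction on. Its level ran from 2421 in replicate 5 through a median of 3302 to 4485 in replicate 6, a 1.85-fold range around a mean of 3405 ± 774 (SD, n = 9). Replicates 5, 8 and 7 were low, at 2421, 2455 and 2710.4, and replicates 6 and 9 were high.

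Des encodes desmin, the muscle-type intermediate filament that mesangial cells and injured podocytes of rats also make. Its level ran from 330.2 in replicate 2 through a median of 484 to 677 in replicate 1, with a mean of 494 ± 125 (SD, n = 9). Replicates 2 and 3, the latter at 338, were low as they were for Tagln and Cnn1, and replicates 1, 5 and 8 were high.

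Pdgfrb, the receptor that marks mesangial cells and pericytes, was the steadiest member, with a coefficient of variation of 16.7%. Its level ran from 681 in replicate 3 through a median of 1118 to 1328 in replicate 1, and the mean was 1094 ± 182 (SD, n = 9). Replicate 3, the shallowest library with 342 Pdgfrb reads, stood low, and the other 8 lay between 980.2 and 1328.

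Itga8, the integrin chain, ran from 158 in replicate 5 through a median of 366 to 559.7 in replicate 9, with a mean of 349 ± 124 (SD, n = 9) and a 3.54-fold range. The low replicates were 5, 8 and 7, at 158, 212 and 252, which were also the low replicates of Mylk. Its coefficient of variation was 35.6% against a counting error of 5.43%.

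**Figure D1:**
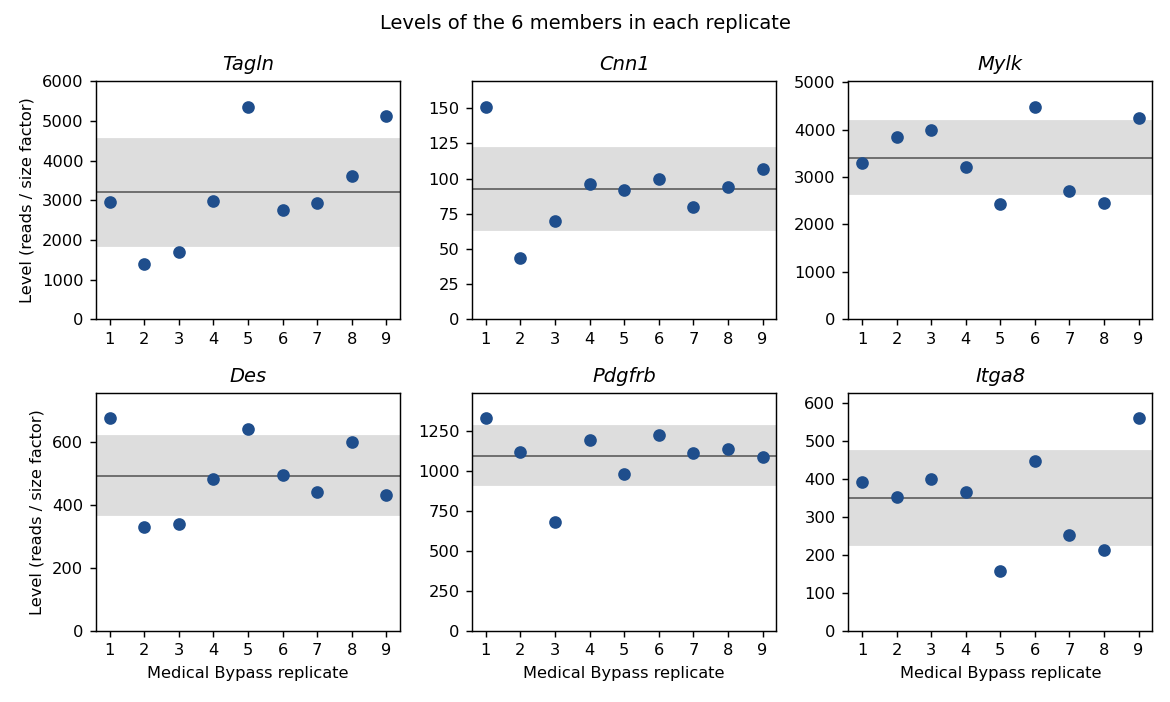
Level of each of the 6 genes in the 9 replicates (y axis, size-factor-scaled reads, 1 panel a gene; x axis, replicate number). The line is the mean and the band is 1 SD on either side. Tagln, Des and Cnn1 were lowest in replicate 2, Pdgfrb in replicate 3, and Itga8 and Mylk in replicate 5.

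Whether any of the genes varied more than genes of like level was tested with limma against a trend of variance on level. The variance of Tagln was 6.44 times that of the trend (unadjusted p = 0.0353, adjusted p = 0.957), which placed it at percentile 97.2 of the 13647 genes tested. The ratio was 3.60 for Itga8, and between 1.18 for Pdgfrb and 1.77 for Mylk for the others. No member passed, and neither did any other gene tested (0%), and 573 of the 13647 genes had an unadjusted p under 0.05. The reference spread was estimated from the variances of these same genes. The test therefore ranks genes against one another, and no conclusion is drawn from none having passed. The Pdgfrb ratio fell to 0.28 without replicate 3, and that of Cnn1 to 0.69 without replicate 2.

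Other genes of the smooth muscle contractile apparatus were also low in the libraries in which Tagln, Des and Cnn1 were low. Of the 20 genes of that list that were tested, 14 had their lowest level in replicate 2 or 3, which is 70%, against 27.2% of all genes tested, and 7 were highest in replicate 1 (35% against 14.2%). Replicates 2 and 3 were picked out after the levels had been seen, and the counts carry no test. Fibroblast and myofibroblast markers shared the feature, with 8 of 9 lowest in replicate 2 or 3. None of the 12 genes of contraction and calcium signalling had its lowest value there, and 10 of them were lowest in replicate 5 (83.3%), as Itga8 and Mylk were, against 24.1% of all genes tested. So were 4 of 6 genes of the Itga8 partner and ligands, 4 of 7 endothelial markers and 4 of 8 vasoconstrictor genes.

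Across the 15 pairs of members, Itga8 and Mylk followed each other closely. Their log2 levels had a Pearson r of 0.92 (exact permutation p = 0.00030, adjusted p = 0.0045 over the 15 pairs) and a Spearman coefficient of 0.93 (exact permutation p = 0.00075, adjusted p = 0.011), with n = 9. Without replicates 5 and 8, the farthest from the median of Itga8, r was 0.83, and leaving out any replicate gave r from 0.90 to 0.93 with the call kept in 9 of 9 cases. In replicates 4 to 9 r was 0.94 (exact permutation p = 0.0069, adjusted p = 0.104). After both genes were adjusted for the multiply aligned share r was 0.81 (permutation of residuals, adjusted p = 0.048). That permutation ignores the fit of the covariate, so its p-values are approximate and may be too small, here and for the pairs below.

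Des and Cnn1, which were both lowest in replicates 2 and 3 and highest in replicate 1, had a Pearson r of 0.79 (exact permutation p = 0.0072, adjusted p = 0.054) and a Spearman coefficient of 0.60 (exact permutation p = 0.097, adjusted p = 0.354). This relation rested on the replicates at both ends: r was 0.49 without replicates 2 and 3, the lowest of both genes, and −0.0858 in replicates 4 to 9, which also leave out replicate 1, the highest of both. The pair passed the adjusted threshold without replicate 5 (r = 0.85) or replicate 9 (r = 0.85). With the multiply aligned share as a covariate r was 0.81, and its adjusted p of 0.048 (permutation of residuals) is approximate in the same way. Tagln and Des had r = 0.69 (exact permutation p = 0.037, adjusted p = 0.183) and a Spearman coefficient of 0.57 (exact permutation p = 0.121, adjusted p = 0.354), and r fell to 0.40 without replicates 2 and 5 and to 0.34 in replicates 4 to 9. Of the fits with 1 replicate left out, that pair passed in the fit without replicate 9, with r = 0.87. Tagln and Cnn1 had r = 0.66 (exact permutation p = 0.054, adjusted p = 0.201) and a Spearman coefficient of 0.48 (exact permutation p = 0.194, adjusted p = 0.354), and r became 0.47 without replicates 2 and 5, 0.32 in replicates 4 to 9 and 0.82, past the threshold, without replicate 1. Tagln and Pdgfrb had r = 0.26 (exact permutation p = 0.488, adjusted p = 0.665) and a Spearman coefficient of −0.12 (exact permutation p = 0.776, adjusted p = 0.776), with r = 0.60 without replicates 2 and 5. In replicates 4 to 9 the r of that pair was −0.85 (exact permutation p = 0.019, adjusted p = 0.146).

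Pdgfrb and Itga8, both used as mesangial markers, had r = 0.06 (exact permutation p = 0.868, adjusted p = 0.868) and a Spearman coefficient of 0.13 (exact permutation p = 0.744, adjusted p = 0.776). The value is set by few samples, since r was 0.58 without replicates 3 and 1 and 0.58 in replicates 4 to 9. Pdgfrb and Des had r = 0.52 (exact permutation p = 0.156, adjusted p = 0.390) and a Spearman coefficient of 0.48 (exact permutation p = 0.194, adjusted p = 0.354). That r fell to 0.14 without replicates 2 and 3 and to −0.43 in replicates 4 to 9. It rose to 0.73 with the multiply aligned share as a covariate (permutation of residuals, approximate adjusted p = 0.048). Des and Mylk had r = −0.58 (exact permutation p = 0.111, adjusted p = 0.332) and a Spearman coefficient of −0.47 (exact permutation p = 0.213, adjusted p = 0.354), and r was −0.47 without replicates 2 and 3 and −0.64 in replicates 4 to 9. In all, 9 pairs had r above 0 and 6 had r below 0, 3 had an unadjusted p under 0.05 and 1 passed. That 1 pair, Itga8 with Mylk, is not particular to the members. In the limma fit on Itga8 described below, 33.7% of all genes passed, and the slope of Mylk stood at percentile 86.3.

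**Figure D2:**
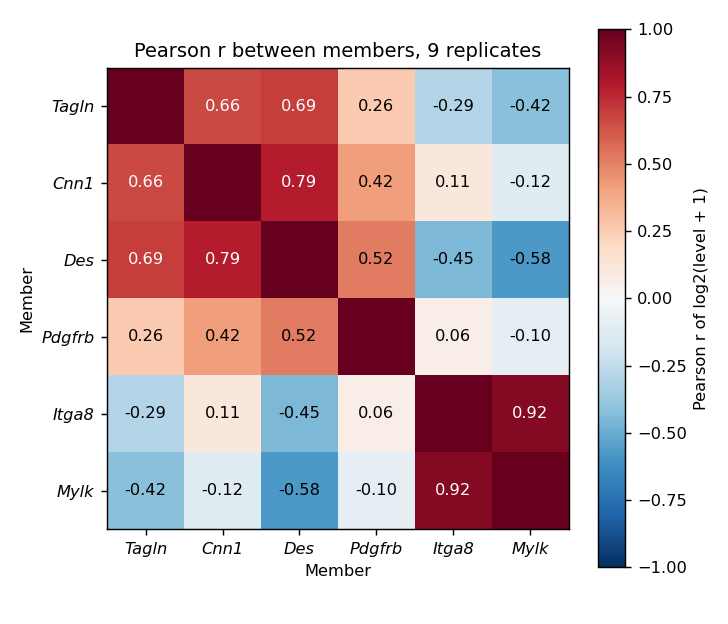
Pearson r of log2 level over 9 replicates for each pair of the 6 genes (colour scale from −1 to 1, values printed in the cells). The 0.92 of Itga8 with Mylk is the highest, followed by the 3 pairs among Tagln, Des and Cnn1 at 0.66 to 0.79.

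**Figure D3:**
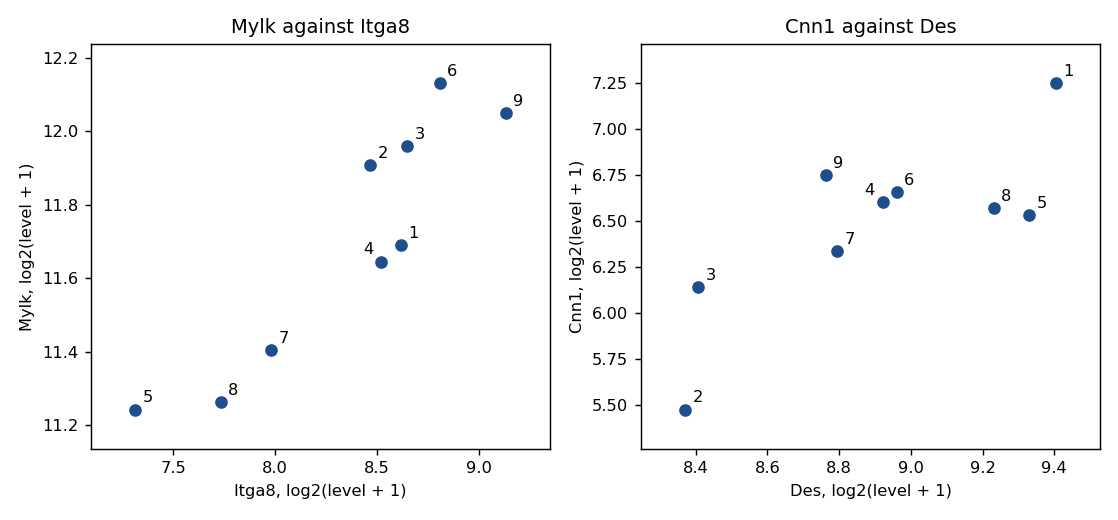
Log2 levels of Itga8 against Mylk and of Des against Cnn1, with points numbered by replicate. Both Itga8 and Mylk have replicates 5, 8 and 7 at the low end, while for Des and Cnn1 replicates 2 and 3 lie at the low end and replicate 1 at the high end.

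To place the members among all genes, every gene tested was fitted on the log2 level of Itga8 with limma, where a slope of 1 means that a gene doubles when Itga8 doubles. Of the 5 other members, 1 passed, Mylk, with a slope of 0.54 ± 0.106 (SE, adjusted p = 0.0047). Of all genes 33.7% passed, 17.7% with a positive and 16% with a negative slope (2415 and 2180 genes), so that passing here is common. Scaling each library to the same total moved that split to 3318 positive and 866 negative, and shifted the median gene by up to 0.30 log2 units between libraries. The calls depended on replicate 5, in which Itga8 was lowest: without it 0 genes passed with limma (3998 at an unadjusted p under 0.05), and Mylk had a slope of 0.63 (adjusted p = 0.067). Without replicate 8 the count was 2786. With the multiply aligned share as a covariate 0 genes passed (2058 unadjusted), and the slope of Mylk was 0.44 (limma adjusted p = 0.24). The slopes that follow carry the same dependence.

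The other members had slopes on Itga8 of −0.33 for Tagln (adjusted p = 0.472), −0.29 for Des (adjusted p = 0.244), 0.09 for Cnn1 (adjusted p = 0.815) and 0.03 for Pdgfrb (adjusted p = 0.893). None of these passed. The rankings of nearest genes, here and below, left out the members. They also left out some rows by name, among them provisional symbols and all names starting with X. The genes nearest to Itga8 by Pearson r over the 9 replicates were Tmem47 (r = 0.99), Sh3bgrl (0.98), Tlr3 (0.98), Nab1 (0.96) and Iqgap1 (0.96), the last a scaffold that links the cytoskeleton to signalling. Those nearest to Mylk were Slfn5 (0.99), Utrn (0.99), which encodes utrophin, Lrba (0.99), Mob1b (0.99) and Gfpt1 (0.99), the entry enzyme of the hexosamine pathway. These values describe likeness over 9 libraries that also differ in depth and in their share of multiply aligned reads.

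Genes that regulate contraction included many that rose with Itga8. In the list of contraction and calcium signalling, 9 of 12 tested genes rose (75%) and none fell, where 17.7% of all genes rose and 16% fell. The median slope was 0.62 against −0.03 over all genes. Rock2 and Rock1, kinases that hold back myosin phosphatase, had slopes of 1.41 (adjusted p = 0.0038) and 1.08 (adjusted p = 0.0041). Ppp1r12a, the targeting subunit of myosin phosphatase on which they act, had a slope of 1.14 (adjusted p = 0.0038). Kcnma1, the large-conductance calcium-activated potassium channel, had a slope of 1.16 (adjusted p = 0.0045), and Gucy1a3, a subunit of the nitric oxide receptor, one of 0.48 (adjusted p = 0.0070). Rhoa and Atp2a2, the small GTPase that activates both kinases and the calcium pump of the reticulum, did not pass, with slopes of 0.03 (adjusted p = 0.830) and 0.34 (adjusted p = 0.069), and the Rhoa value changed sign under several alternatives.

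Among 20 tested genes of the contractile apparatus itself, 3 rose and 3 fell with Itga8, with a median slope of −0.07. The 30% that passed is near the 33.7% of all genes that did, so the genes named next do not set the list apart. Cald1 (caldesmon) rose with a slope of 0.83 (adjusted p = 0.0043), and so did Synpo2 (0.91), which encodes an actin-linked scaffold protein. Pdlim7 and Hspb6 were among those that fell, with slopes of −0.62 (adjusted p = 0.032) and −0.56 (adjusted p = 0.037). With 1 replicate left out, Pdlim7 passed in 5 and Hspb6 in 2 of 9 fits. Tpm1, a tropomyosin, and Cnn3, the non-muscle calponin, did not pass, at 0.13 and −0.05, and the Cnn3 value turned to 0.07 when libraries were scaled to the same total. Whether the counts of these lists differ from each other was not tested.

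Of 11 transcriptional regulators of contractile genes, 5 rose with Itga8 and none fell, where 17.7% of all genes rose and 16% fell. They were Mef2a (slope 1.08, adjusted p = 0.0041), Prrx1 (1.05), Tead1 (1.16), Mef2c (1.15) and Myocd (1.28, adjusted p = 0.019), the last encoding myocardin, the coactivator of serum response factor, at a mean level of 11.2. Srf itself had a slope of −0.13 (adjusted p = 0.358), which became 0.01 with libraries scaled to the same total.

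Counts of receptors and ligands on Itga8 stand beside 17.7% of all genes that rose and 16% that fell. Ednrb (endothelin receptor B) rose with a slope of 0.95 (adjusted p = 0.0039) and Agtr1b, an angiotensin receptor, with one of 0.60 (adjusted p = 0.013). They were the 2 of 8 genes (25%) that passed in the list of vasoconstrictor receptors and ligand, against 33.7% of all genes. Of 5 genes of the PDGF family other than Pdgfrb, 3 rose: Pdgfra (0.59), the sister receptor, and the ligand genes Pdgfc (0.50) and Pdgfd (0.72), the last of which passed in 4 of 9 fits with 1 replicate left out. Of 6 genes of the Itga8 partner and its ligands, 3 rose, among them Itgb1, the beta chain with which it pairs (0.43, adjusted p = 0.014), and Frem1 (1.13), which encodes a basement membrane protein. In the TGF-beta pathway 5 of 12 rose, including the receptors Tgfbr3 (1.11), Tgfbr2 (0.75) and Tgfbr1 (0.72).

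Markers of other cell types were read on Itga8 in the same way, where 17.7% of all genes rose and 16% fell. None of the 6 other mesangial markers tested passed, and Nt5e, a surface enzyme that makes adenosine, had a slope of 0.48 (adjusted p = 0.112). Of 7 pericyte markers 3 rose, Abcc9 (1.18), Rgs5 (0.89) and Rgs4 (0.43), and of 7 endothelial markers 4 rose, led by Flt1 (0.78) and Tek (0.48). Rgs4 passed in 2 of 9 fits with 1 replicate left out. Podxl was the 1 of 7 podocyte markers that rose (0.39), none of 9 fibroblast markers passed, and 3 of 5 proximal tubule markers fell, among them the phosphate transporter gene Slc34a1 (−0.61). The part of these cell types in the Itga8 slopes was not tested.

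**Figure D4:**
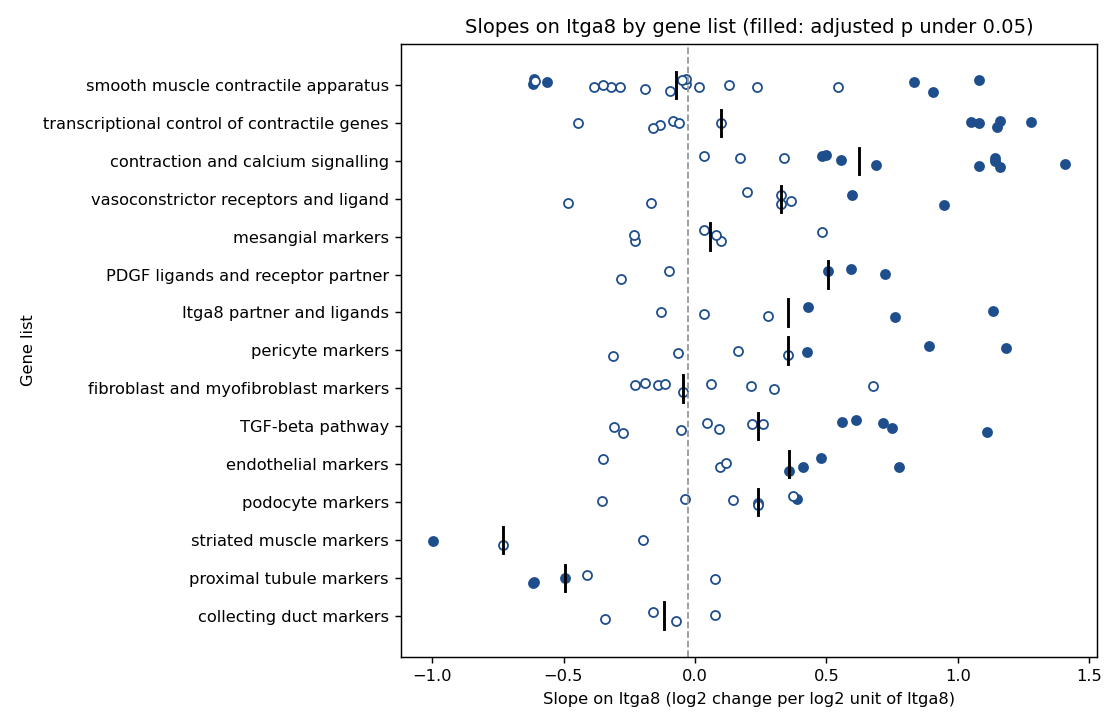
Slopes of listed genes on the log2 level of Itga8 (x axis, log2 per log2), 1 row a list of at least 3 tested genes. Filled points passed at an adjusted p under 0.05, bars are list medians and the dashed line is the median of all genes tested. Contraction and calcium signalling genes sit at positive slopes with a median of 0.62, and the contractile apparatus is spread on both sides of 0.

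Fitted on Tagln in the same way, no gene passed with limma (0%), with 1261 at an unadjusted p under 0.05. edgeR on the recovered reads also called 0 (1293 unadjusted), and DESeq2 called 58. Leaving out replicate 9 gave 3194 calls, with Des at a slope of 0.57 (adjusted p = 0.017), and leaving out replicate 1 gave 5. Among the members, Des had a slope of 0.40 (adjusted p = 0.493), Cnn1 0.50 (0.493), Pdgfrb 0.11, Mylk −0.22 and Itga8 −0.26. Of 20 contractile apparatus genes, 17 had a positive slope and none passed, with a median of 0.23 against 0.00 over all genes.

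Among the genes nearest to Tagln were Creb3l1 (r = 0.97), Myl12a (0.94), a regulatory myosin light chain, Ada (0.94) and Gadd45g (0.94). Those nearest to Des were Cspg4 (0.96), the NG2 proteoglycan of pericytes, Mfge8 (0.94), Akr1b1 (0.94), Clip2 (0.94) and Gng10 (0.94). For Pdgfrb they were Hoxd3 (0.97), Art4 (0.95), Fhl1 (0.94), Gnrh1 (0.93) and Med18 (0.93), values with Spearman coefficients from 0.62 to 0.85. For Cnn1 they were Srgn (0.95), Nkx6-1 (0.93), Mmd (0.92), Pip5k1b (0.91) and Lrrc75a (0.91).

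The multiply aligned share, a property of the library, moved with 3 of the 6 members, where 35% of all genes passed (16.3% higher and 18.7% lower). Per SD of that share, 2.33 percentage points, Des rose by 0.30 ± 0.0795 on the log2 scale (SE, limma adjusted p = 0.012). Itga8 fell by 0.42 (slope −0.42 ± 0.121, adjusted p = 0.018) and Mylk by 0.26 (−0.26 ± 0.0760, adjusted p = 0.018). Tagln had a slope of 0.40 (adjusted p = 0.053), Cnn1 0.22 (adjusted p = 0.244) and Pdgfrb 0.03 (adjusted p = 0.788). Without replicate 5, which had the highest share, Itga8 was at −0.30 (adjusted p = 0.298) and Mylk at −0.33 (adjusted p = 0.092), and in replicates 4 to 9 Des was at 0.18 (adjusted p = 0.097). Over all genes 2225 rose and 2549 fell with the share, or 1489 and 2815 with libraries scaled to the same total, and the 4774 calls became 1740 without replicate 5 and 3135 in replicates 4 to 9.

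The listed genes gave values on both sides of 0 along that share, with which 16.3% of all genes rose and 18.7% fell. Of 12 contraction and calcium signalling genes 9 fell and none rose, among them Rock2 (−0.82), Pde5a (−0.69), Ppp1r12a (−0.64), Rock1 (−0.61) and Itpr1 (−0.37), the inositol trisphosphate receptor. Of 20 contractile apparatus genes 5 rose and 3 fell: Ppp1r14a (0.46), an inhibitor of myosin phosphatase, Myl9 (0.36), the smooth muscle regulatory light chain, Csrp1 (0.34) and Smtn (0.24) were among those that rose. Of the mesangial markers Thy1 rose (0.30) and Nt5e fell (−0.40), and of the pericyte markers Cspg4 rose (0.28) while Abcc9 (−0.71) and Rgs5 (−0.40) fell, Rgs5 in 3 of 9 fits with 1 replicate left out. What part the library property had in the member levels was not tested.

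**Figure D5:**
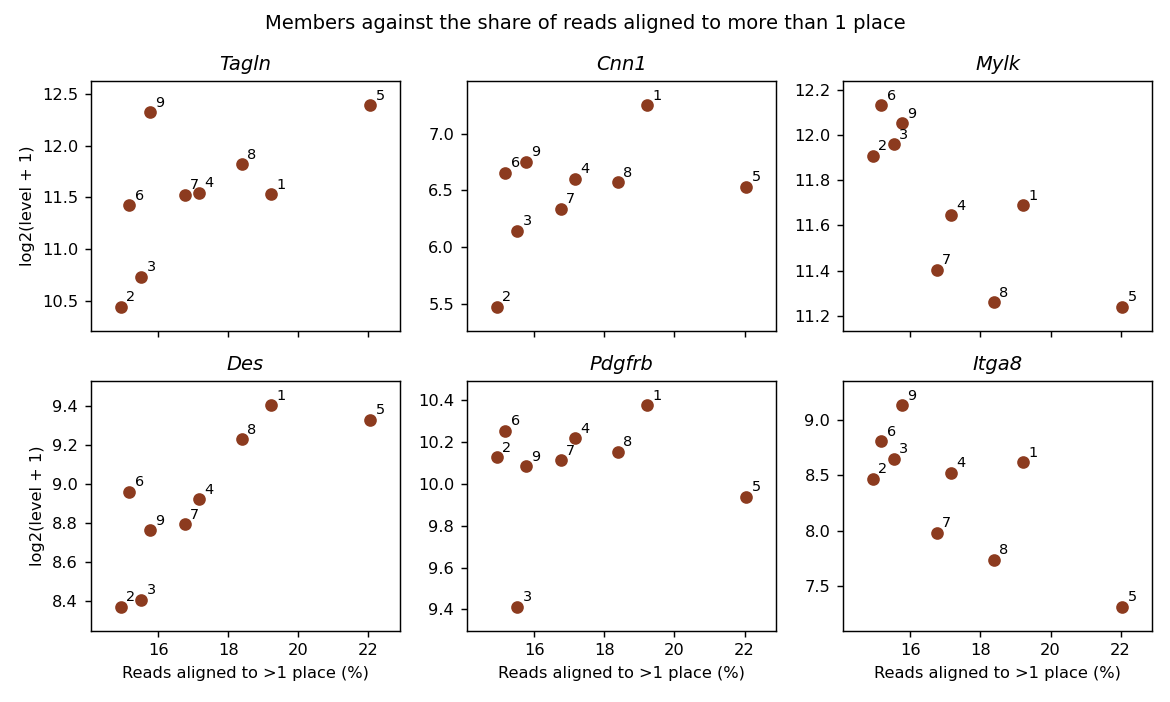
Log2 level of each of the 6 genes (y axis) against the multiply aligned share of reads (x axis, percent), points numbered by replicate. Replicate 5, at 22.1%, has the lowest Itga8 and Mylk levels and the highest Tagln level.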

How the data were processed

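RNA-seq of kidney cortex from 9 samples of 1 group was used. Per the labels, RNA was isolated from flash-frozen cortex and stranded mRNA libraries were made. Per the submitters' processing notes, the genome build was Rnor_5.0, and the tools named are DESeq2, HTSeq 0.6.1p1, MultiQC 0.9 and FastQC 0.11.2. The aligner is not given in the sources used here. What the authors deposited is a signal, the reads counted on each gene over that library's size factor. The table was taken to hold this unit from its name and from its values, in which 100% of the non-zero entries were whole reads, to within 0.1 read, once divided by what 1 read is worth. Whole reads were recovered that way, 26045365 ± 9955332 per library (SD, n = 9), and intervals of these reads cover counting error only. The 3 rows that name no gene were left out. Reads outside genes made 22.0% of all counted reads in replicate 5 and 27.2% to 31.3% in the other replicates.

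A pseudocount of 1 was added before log2, and the 13647 genes (74.1%) whose mean level reached 10 were fitted with limma 3.58.1 in R 4.3.3 with a robust trend, Benjamini-Hochberg adjustment over all genes tested and a threshold of 0.05. Pairs of members were tested with exact permutation in numpy 2.4.6. With the share as a covariate, residuals of both genes were permuted instead. edgeR 4.0.16 and DESeq2 1.42.0 were run on the recovered reads as alternatives. edgeR called 4622 genes on Itga8 and 4833 on the share of multiply aligned reads, and DESeq2 called 5245 and 5408. The fits were tested on simulated data in which, apart from the set slopes, genes varied independently. Those data do not cover a library property that many genes follow.

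The members and all 18 gene lists were chosen with earlier results of these data known. A slope on Myh11 and 28 pairs had been planned, and with 6 genes in hand Tagln took the place of Myh11 and 15 pairs remained, a choice made after the table was seen. Named genes were the members, the 5 nearest genes by r to each member (also chosen after the table was seen), and per list some of the 2 most abundant and up to 5 that passed a fit. Promoters came from RefSeq on GRCr8, a different build, and were matched by symbol. Alternatives were other pseudocounts (0.5 and 5), level filters (1 and 100), scalings (TMM and the same total), covariates and left-out replicates. Results of some genes are not reported here.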

Additional observations from a re-analysis of the deposited data

How the results depend on the processing

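The number of genes called on Itga8, 4595, became 0 with the share of multiply aligned reads as a covariate and 1974 with log2 reads as a covariate, and ran from 0 to 6207 with 1 replicate left out. On Tagln 0 became 58 with DESeq2 and ran from 0 to 3194 with 1 replicate left out. On the share, 4774 became 3135 in replicates 4 to 9 and ran from 1740 to 4978. Of the 15 pairs 1 passed, against 0 in replicates 4 to 9, where each test had 6 samples, and 1 to 3 with 1 replicate left out. With the share as a covariate 3 passed, on approximate p-values from permuted residuals. The causes of these changes were not tested. Several uncalled slopes changed sign. With the share as a covariate, slopes on Itga8 were 0.41 for Tagln, 0.22 for Des, −0.0253 for Rhoa and −0.0773 for Nt5e, slopes on Tagln were 0.24 for Itga8 and 0.0580 for Mylk, and r of Des with Mylk was 0.17. With libraries scaled to the same total, Srf on Itga8 was 0.00938, Cnn3 on Itga8 0.0711 and Pdgfrb on the share −0.00633. With log2 reads as a covariate, Rhoa on Itga8 was −0.00359 and Pdgfrb on the share −0.0275. In replicates 4 to 9, Pdgfrb on Tagln was −0.22, Pdgfrb and Cnn1 on the share −0.0820 and −0.0401, r of Des with Pdgfrb −0.43 and r of Des with Cnn1 −0.0858. With 1 replicate left out, slopes on Itga8 ran from −0.80 to 0.11 for Tagln, from −0.0569 to 0.12 for Pdgfrb and from −0.00327 to 0.0586 for Rhoa. On Tagln they ran from −0.0875 to 0.22 for Pdgfrb and from −0.60 to 0.0641 for Itga8, and on the share from −0.0367 to 0.19 for Pdgfrb. The r of Pdgfrb with Itga8 ran from −0.0873 to 0.55. The r of Tagln with Pdgfrb, 0.26, was −0.85 in replicates 4 to 9 and ran from −0.41 to 0.42 with 1 replicate left out, and the Spearman coefficient was −0.12. No paired analysis was possible because the samples form 1 group. Counting error limits Cnn1 most, with as few as 35 reads in a library.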

Other observations

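Actg2, the enteric smooth muscle actin, averaged 39.1 and ran from 9.95 in replicate 3 to 88.4 in replicate 1. Summed collecting duct markers were highest in replicate 1 as well, at 33065, and summed proximal tubule markers lowest there. Cnn3, the non-muscle calponin, differed by 1.11-fold between its lowest and highest library.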
